A study of Mus musculus with 22 samples.

Results

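Liver exposed for 28 weeks to TCPOBOP was compared with liver of vehicle controls, using 3 arrays of each, 6 of the 22 arrays in the series. Arrays were chosen by their titles alone, with no use of measured values. All mice were female C3H. The TCPOBOP 28 weeks group received TCPOBOP at 3 mg/kg into the stomach once a week and no diethylnitrosamine (DENA). The controls, whose titles carry only an abbreviation, were read as the age-matched mice that received DMSO with corn oil, since no other group without TCPOBOP is described. The remaining arrays came from 42 weeks of TCPOBOP (7) and from DENA at 90 mg/kg followed by 28 weeks of TCPOBOP (9), and enter only where all 4 groups were fitted. RNA came from microdissected liver. Liver cancers had been seen by the times of killing under both regimens, but whether the pieces taken at 28 weeks without DENA held tumour is not given in the sources used here. Samples are called biological replicates, but neither a separate mouse for each array nor the exact age of each control is stated, so the p-values measure the spread between these samples.

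TCPOBOP is a synthetic agonist of the constitutive androstane receptor (CAR), a nuclear receptor of hepatocytes that drives transcription of cytochromes P450, conjugating enzymes and export pumps. In mice it also makes the liver grow through hepatocyte enlargement and division, and prolonged exposure promotes liver tumours without damaging DNA directly. A liver lobule is zoned: hepatocytes around the central vein, under Wnt signals from the endothelium, carry glutamine synthetase and other pericentral proteins, while those near the portal vein make glucose and urea.

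Each array carried 45281 probes, of which 37.3% to 42.6% gave a signal above its negative control beads. Signals are log2 of background-corrected, quantile-normalised intensity. A change is the mean of the TCPOBOP arrays minus the mean of the control arrays on this scale, given with its standard error, and was tested with limma's moderated test, with Benjamini-Hochberg adjustment over 10088 genes and a threshold of 0.05. Within groups the arrays correlated at r = 0.984 to 0.986 (TCPOBOP) and 0.976 to 0.987 (control) across genes, and between groups at 0.937 to 0.950. The first principal component held 67.2% of the variance and set the TCPOBOP arrays (-38.5 to -35.3) apart from the controls (34.2 to 39.0), and the second, with 12.7%, spread mainly the controls (-20.5 to 30.3).

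After 28 weeks of TCPOBOP, 1791 of 10088 genes (17.8%) differed from controls. Of these, 980 (9.71% of all tested) rose and 811 (8.04%) fell, with at least a 2-fold change for 614 of those that rose and 333 of those that fell. The arrays of both groups did not overlap for 3737 genes (37%). This held for 1788 of the 1791 that passed, so a lack of overlap adds little to a call. Where all 4 groups of the series shared one estimate of the spread, 771 genes passed, 757 of them also passing with these 6 arrays alone. The median standard deviation was 0.21 in TCPOBOP 28 weeks and 0.23 in controls, against 0.37 at 42 weeks and 0.35 in DENA plus TCPOBOP. For a gene named below as changed that did not pass in the fit of all groups, the adjusted p of that fit, or the highest over all settings, is given and named as such. With median scaling in place of quantile normalisation, 955 genes passed, 708 higher and 247 lower, so that the share higher was 74.1% against 54.7%, and the median change of all genes was 0.06 against -0.06. In these bulk samples fewer cells of a type and less RNA per cell cannot be told apart. Slides 2 and 4 each held 1 array of either group, while TCPOBOP replicate 1 and control replicate 2 lay on slides 1 and 3.

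**Figure D1:**
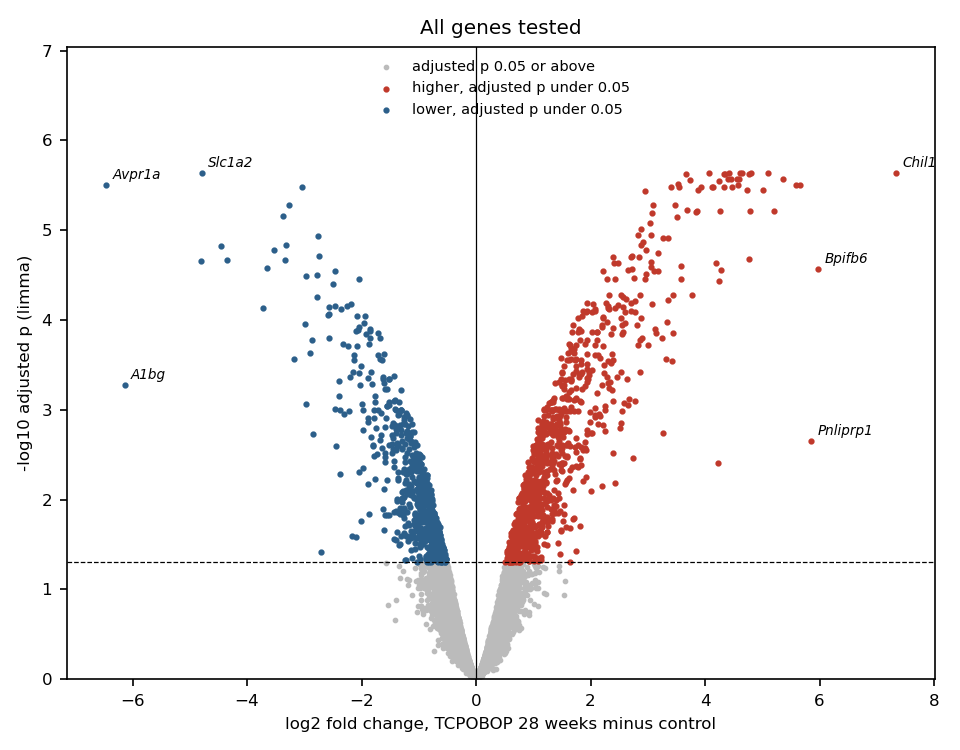
Log2 change of each of the 10088 genes (horizontal axis, TCPOBOP 28 weeks minus control) against the negative log10 of limma's adjusted p (vertical axis). The 980 genes that rose are red and the 811 that fell are blue, with Chil1 farthest to the right and Avpr1a farthest to the left.

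CAR targets were read first, as a check of the labels. Of 39 measured, 28 rose and 2 fell (23 and 1 with all 4 groups fitted, with 1 falling without TCPOBOP replicate 2 or 3 or control replicate 2 or 3). The list's median change was 1.03, and 1.11 and 1.04 within slides 2 and 4, against -0.06 over all genes. Cyp2b10, the P450 most used to read CAR activity, had 15.30, 14.98 and 15.23 on the TCPOBOP arrays, against 13.47, 13.74 and 13.80 on the controls. The 3 TCPOBOP values were near the top of the scale. Cyp2c55, a P450 that was less bright in controls, rose by 3.35 ± 0.27 (adjusted p = 5.97e-05). RNA of the receptor itself moved the other way, since Nr1i3, which encodes CAR, fell by 1.94 ± 0.17 (adjusted p = 8.98e-05) on its brightest probe, with the same sign on all 3 kept probes.

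Outside the CAR list the gene with the largest rise was Chil1, which encodes a secreted chitinase-like lectin. Chil1 had 11.48, 12.60 and 12.55 on the TCPOBOP arrays, against 5.10, 4.86 and 4.67 on the controls, none of which detected it, so that it was at least 131-fold higher (adjusted p = 2.33e-06). Such bounds, here and below, hold for background-corrected signals. Without background correction the log2 change was 5.30 for Chil1, and for Mmp13, Sult1e1 and Ptpn14 below it was 2.27, 2.46 and 2.65, each less than the log2 of its bound. Over all settings tried, the smallest log2 change was 3.24 for Ubd, 2.50 for Fzd10, 1.38 for Rrm2, 1.81 for Mmp12 and 1.30 for Cyp4a12a. It was -1.62 for Extl1 and -1.07 for Esrrg. Each is smaller in size than the log2 of the gene's bound, so the bounds depend on the processing. Pnliprp1, a relative of pancreatic lipase, had 14.79, 14.80 and 14.85 on the TCPOBOP arrays, against 10.81, 9.67 and 6.38 on the controls. The fitted change of Pnliprp1 was 5.86 ± 0.90 (adjusted p = 0.00225), with the TCPOBOP values near the top of the scale, where saturation was not tested. Bpifb6, of the lipid-binding BPI family, rose by 5.98 ± 0.43 and was detected on 1 of 3 control arrays. Tmprss7, a membrane serine protease, rose by 5.65 ± 0.27, and Mical1, an enzyme that oxidises actin, rose by 5.58 ± 0.27.

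The remaining large rises covered signalling and metabolism. Ubd, which encodes the ubiquitin-like modifier FAT10, had 10.31, 10.36 and 9.92 on the TCPOBOP arrays, against 5.09, 5.09 and 5.13 on the controls, none of which detected it, and was at least 32.4-fold higher (adjusted p = 2.33e-06). Ptges, the inducible prostaglandin E synthase, had 9.70, 9.64 and 9.83, against 5.30, 5.0 and 4.59 on the controls. Hkdc1, a hexokinase relative, had 10.01, 9.93 and 9.76, against 5.98, 4.76 and 4.67 on the controls. For Ptges and Hkdc1 only 1 of 3 control arrays gave a detected signal, and their changes were 4.76 ± 0.21 for Ptges and 4.76 ± 0.32 for Hkdc1. Fzd10, a Wnt receptor, was detected on no control array and was at least 17-fold higher. Sidt1 (5.37 ± 0.25), Cyp2d12 (5.20 ± 0.29) and Elapor1 (5.01 ± 0.26) completed the 12 largest rises.

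The largest fall was that of Avpr1a, the vasopressin receptor of hepatocytes. Avpr1a had 5.70, 4.50 and 5.24 on the TCPOBOP arrays, against 12.03, 11.48 and 11.30 on the controls, a change of -6.46 ± 0.31 (adjusted p = 3.16e-06). A1bg, a plasma glycoprotein, had 10.68, 7.11 and 9.66 on the TCPOBOP arrays, against 15.12, 15.24 and 15.50 on the controls. The TCPOBOP arrays thus spread over more than 3 log2 units for A1bg and still did not reach the controls (adjusted p = 0.000534, and 0.0987 with all 4 groups fitted and slide as a block). Slc1a2, a glutamate transporter, had 4.74, 4.59 and 5.13 on the TCPOBOP arrays, against 9.46, 9.70 and 9.64 on the controls, and was detected on 1 of 3 TCPOBOP arrays. Cyp3a41b, a female-biased P450, fell by 4.80 ± 0.33 (adjusted p = 2.19e-05). Cross-binding of probes between near-identical genes, as in the Cyp3a, Cyp2b, Cyp4a and Saa families, is possible.

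Of the other large falls, Enho, which encodes the peptide adropin, fell by 4.45 ± 0.29 (adjusted p = 1.50e-05), and the bile acid sulfotransferase Sult2a8 fell by 4.34 ± 0.30 (adjusted p = 2.18e-05). Ntrk2, the receptor for brain-derived neurotrophic factor, fell by 3.53 ± 0.23, and Dct, dopachrome tautomerase, fell by 3.65 ± 0.26. Extl1, a glycosyltransferase of the exostosin family, gave a signal on all 3 controls and on no TCPOBOP array, which makes it lower by at least 6.97-fold (adjusted p = 6.98e-06). Zap70, a kinase of the T cell receptor, fell by 3.32 ± 0.21 (adjusted p = 1.46e-05, and 0.0703 with all 4 groups fitted and slide as a block). Values of 8 measured T and NK cell markers are given further on. Sdr9c7 (-3.72 ± 0.31) and Lrtm1 (-3.33 ± 0.23) completed the 12 largest falls.

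**Figure D2:**
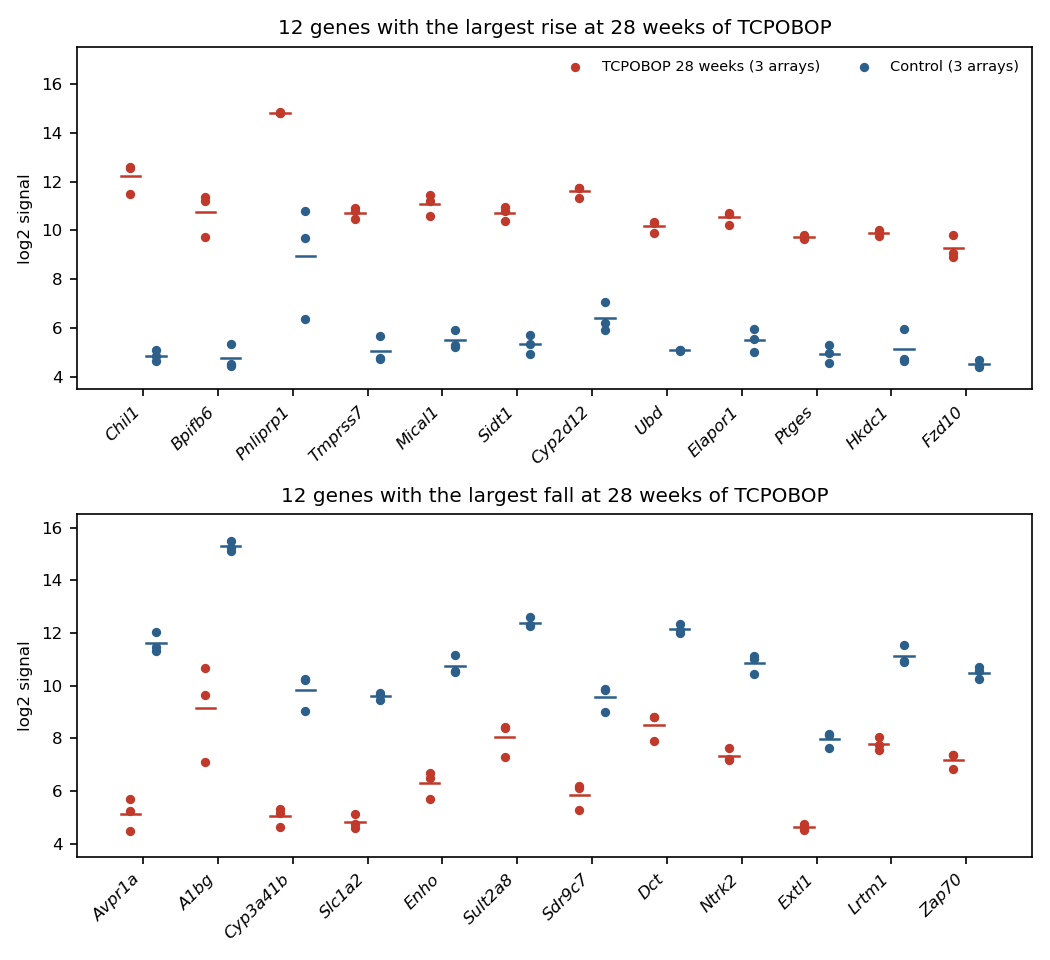
Log2 signal on each array for the 12 genes outside the CAR list with the largest rise (upper panel) and the largest fall (lower panel), with bars at the group means. Genes were chosen only among those whose TCPOBOP and control points do not overlap. The controls of Pnliprp1 and the TCPOBOP arrays of A1bg have the widest spread.

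Gene groups were described by counts over lists of known function. Counts and medians cover members with a probe detected on at least 3 of the 6 arrays. A probe undetected on all controls was kept only where all 3 TCPOBOP arrays detected it. Lists of genes scarce in control liver thus lean towards rises. The lists and their sizes are shown in the plot of list shares. Members named beyond the largest changes of a list were chosen after their values were seen.

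**Figure D3:**
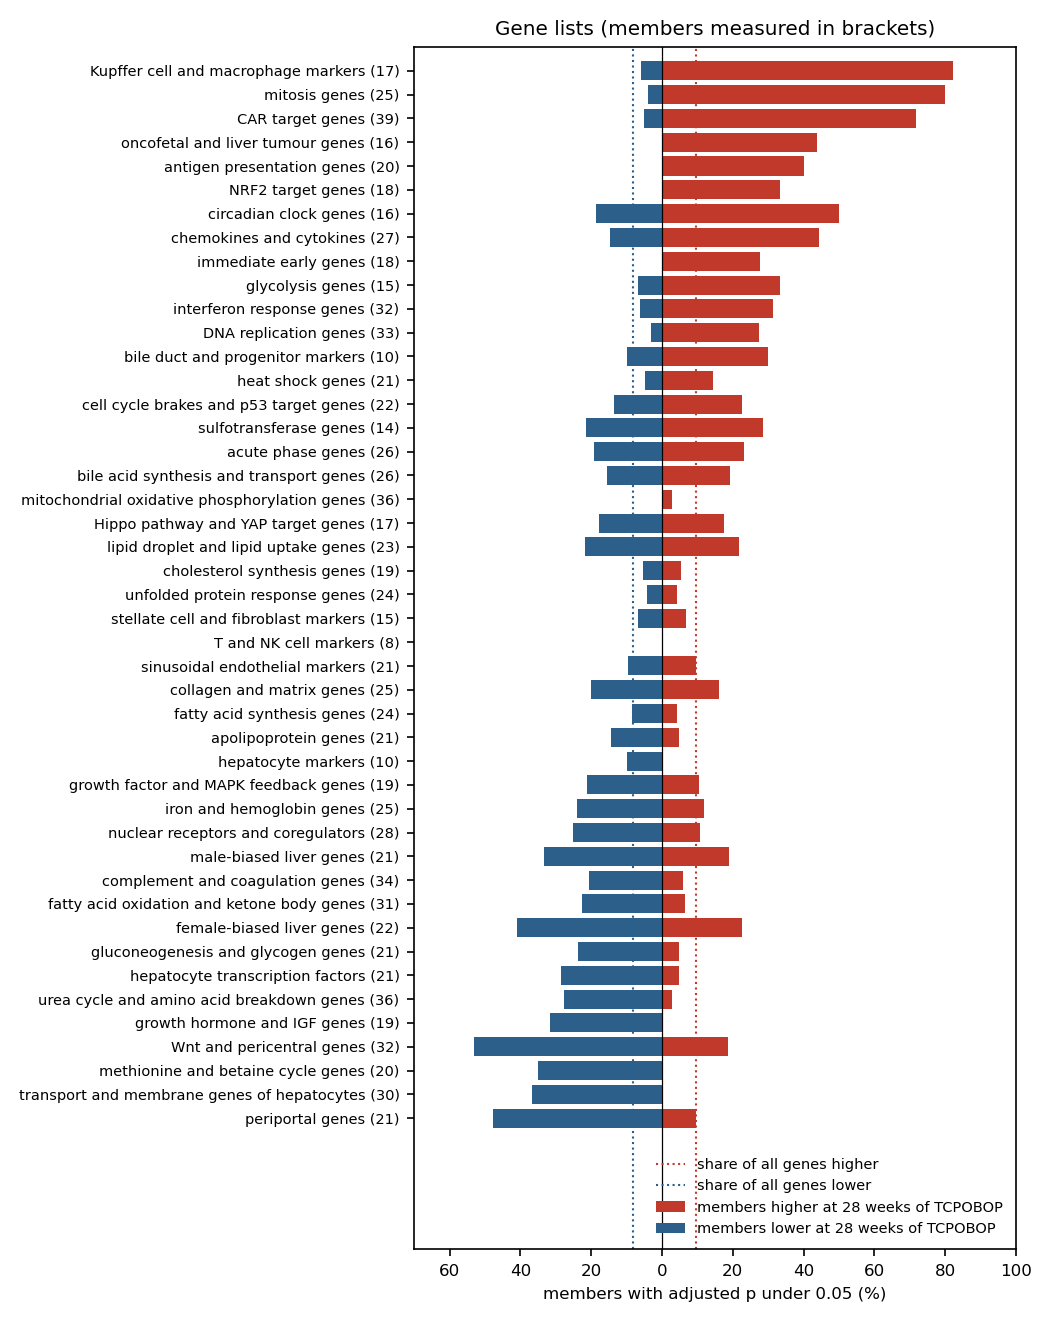
Share of measured members that rose (red, to the right) or fell (blue, to the left) after 28 weeks of TCPOBOP, for lists with 8 or more measured members, with the number measured in brackets. Dotted lines mark the shares over all genes, 9.71% higher and 8.04% lower. Macrophage markers and mitosis genes reach furthest to the right, and pericentral and periportal genes furthest to the left.

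Genes of the Wnt pathway and of the pericentral hepatocyte had more members lower than any other list. Of 32 measured, 6 rose and 17 fell (2 and 10 with all 4 groups fitted), with a median change of -0.81, and of -0.99 and -0.86 within slides 2 and 4. Without background correction the median was -0.45, as it was with the authors' normalised values. Avpr1a, Slc1a2 and Oat, which encodes ornithine aminotransferase, had the largest falls. Oat had 11.29, 10.57 and 10.87 on the TCPOBOP arrays, against 13.96, 13.65 and 14.04 on the controls (-2.97 ± 0.22, adjusted p = 3.20e-05). Rhbg, an ammonium transporter, had 5.33, 5.0 and 5.07, against 8.01, 7.80 and 7.86 on the controls (adjusted p = 1.16e-05, and 0.109 with all 4 groups fitted). The enzyme that takes up ammonia at the central vein was lower too. Glul, glutamine synthetase, had 6.90, 7.61 and 7.15 on the TCPOBOP arrays, against 8.72, 9.61 and 8.75 on the controls, a change of -1.81 ± 0.28 (adjusted p = 0.00248, and 0.143 with all 4 groups fitted).

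Feedback genes that Wnt signalling itself induces were among those that fell. Notum, a secreted enzyme that inactivates Wnt proteins, had 5.90, 6.0 and 6.0 on the TCPOBOP arrays, against 8.88, 8.83 and 8.40 on the controls (adjusted p = 1.96e-05). Axin2, part of the complex that degrades β-catenin, had 5.84, 5.60 and 5.76, against 7.88, 7.52 and 6.85 on the controls (adjusted p = 0.00219, and 0.167 with all 4 groups fitted). Sp5, a transcription factor, had 5.45, 5.58 and 5.20, against 7.90, 8.09 and 6.91 on the controls (adjusted p = 0.00103, and 0.143 with all 4 groups fitted). For all 3 genes the TCPOBOP arrays lay close together and below every control. No TCPOBOP array gave a signal for Lgr5, through which R-spondins strengthen Wnt signals, while all 3 controls did, so that it was lower by at least 2.28-fold (adjusted p = 0.00265). Cldn2, a tight junction protein, fell by 2.49 ± 0.19 (adjusted p = 4.02e-05), and Tbx3, a transcription factor, fell by 1.98 ± 0.35 (adjusted p = 0.00442).

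Not every gene of the list moved this way. Wif1 and Dkk3, which encode secreted proteins named as Wnt inhibitors, rose by 1.83 ± 0.23 (adjusted p = 0.000815, and 0.0753 with all 4 groups fitted) and by 1.81 ± 0.21 (adjusted p = 0.000437, and 0.219 with all 4 groups fitted). Cyp1a2, a pericentral P450 that is also on the CAR list, rose by 0.93 ± 0.16 (adjusted p = 0.00430). Cyp2e1, another pericentral P450, had 15.25, 14.61 and 14.98 on the TCPOBOP arrays, against 15.55, 14.91 and 14.84 on the controls, which overlap (-0.15 ± 0.25, adjusted p = 0.718), near the top of the scale. RNA of β-catenin, Ctnnb1, had 12.33, 11.84 and 12.02 on the TCPOBOP arrays, against 12.15, 12.42 and 12.17 on the controls (adjusted p = 0.541), which overlap.

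Slc1a2 is shown with its promoter because it had the largest fall among the 2 members that fell and carry the motif CTTTGAT, a core of the site bound by TCF/LEF, the partners of β-catenin. Promoters are 250 bases before to 50 bases after the gene's start in RefSeq (GRCm38.p6), and motifs were searched on both strands. A gene counts as carrying a motif if any of its promoter entries does. The motif was in 2 of 10 members that fell and have a promoter entry (the other is Sp5) and in 4.29% of 27025 genes (3.73% of 32851 promoters). The Slc1a2 promoter lies at chr2:102706188-102706487 on the plus strand, with the motif, which reads ATCAAAG on this strand, in capitals.
Slc1a2: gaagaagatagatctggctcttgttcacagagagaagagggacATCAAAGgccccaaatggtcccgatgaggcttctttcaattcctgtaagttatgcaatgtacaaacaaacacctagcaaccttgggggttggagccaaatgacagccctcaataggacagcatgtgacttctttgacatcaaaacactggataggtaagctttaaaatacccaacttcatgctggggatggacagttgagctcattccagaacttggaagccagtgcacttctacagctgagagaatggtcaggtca

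**Figure D4:**
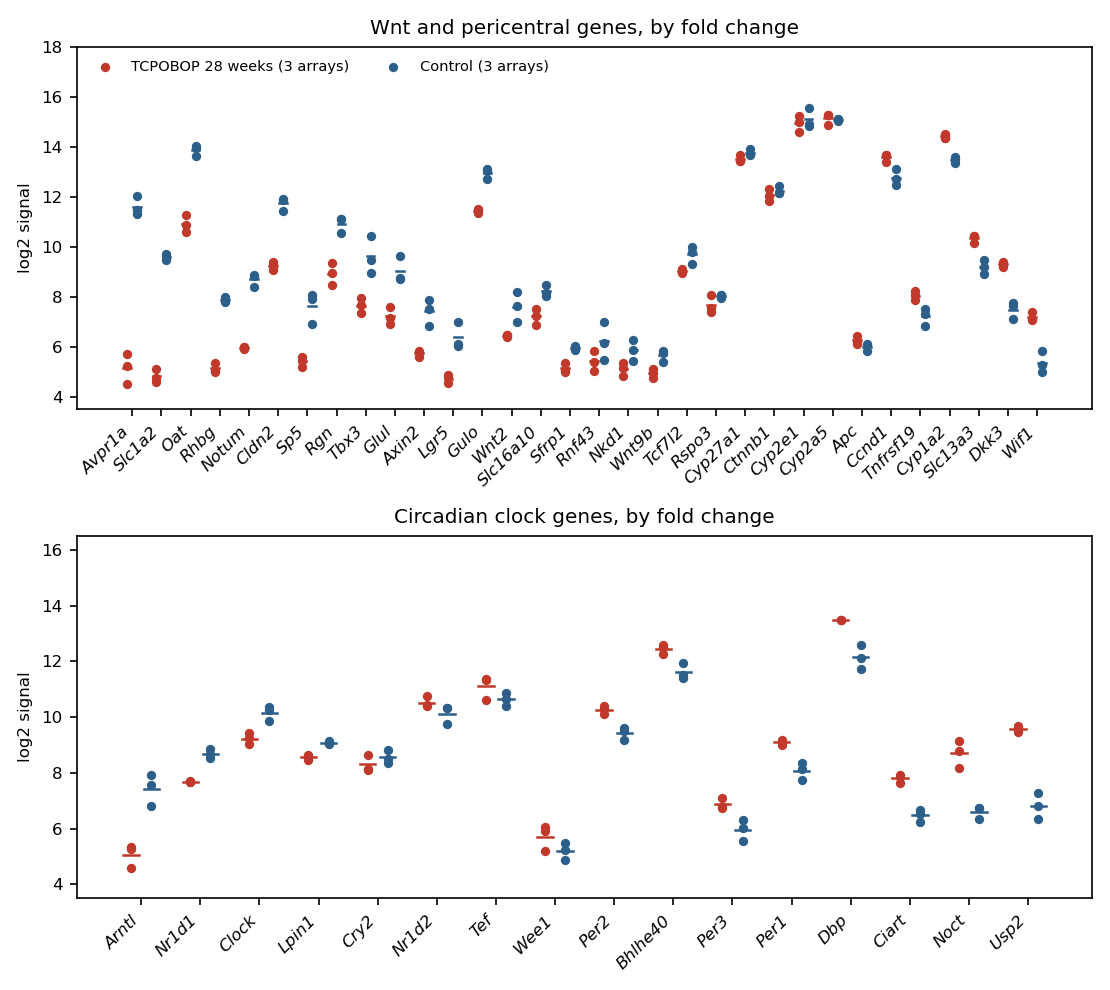
Log2 signal on each array for the 32 Wnt and pericentral genes (upper panel) and the 16 circadian clock genes (lower panel), ordered by change, with bars at the group means. Avpr1a to Lgr5 lie lower on every TCPOBOP array than on any control, Cyp2e1 overlaps, and in the lower panel Arntl is at the low end and Usp2 at the high end.

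Genes of the other lobule side fell as well. Of 21 periportal genes, 2 rose and 10 fell (2 and 1 with all 4 groups fitted, and 2 and 3 under median scaling), with a median change of -0.68. Etnppl, which degrades phosphoethanolamine, had 8.39, 8.03 and 7.97 on the TCPOBOP arrays, against 10.71, 10.20 and 10.56 on the controls (-2.36 ± 0.20, adjusted p = 7.64e-05, and 0.0772 with all 4 groups fitted and slide as a block). G6pc, the last enzyme of glucose release, had 9.00, 8.51 and 8.91, against 11.41, 10.52 and 11.07 on the controls (-2.20 ± 0.25, adjusted p = 0.000436, and 0.136 with all 4 groups fitted). The periportal members that rose were Cdh1, E-cadherin (1.59 ± 0.21, adjusted p = 0.00102), and Apoa4, an apolipoprotein (1.77 ± 0.31, adjusted p = 0.00432).

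Clock genes were changed in both directions. The clock is a loop in which ARNTL and CLOCK switch on the Per genes and others through E-box sites, and NR1D1 in turn represses Arntl. Of 16 clock genes measured, 8 rose and 3 fell (3 and 1 with all 4 groups fitted, 5 and 1 under median scaling, and 5 rose without TCPOBOP replicate 3). Arntl had 5.27, 4.60 and 5.33 on the TCPOBOP arrays, against 7.94, 6.80 and 7.56 on the controls (-2.37 ± 0.31, adjusted p = 0.001). Clock had 9.41, 9.24 and 9.02, against 10.36, 9.87 and 10.24 on the controls (adjusted p = 0.011, 0.0642 with all 4 groups fitted and 0.137 under median scaling). Thus both genes of the activating pair were lower on every TCPOBOP array than on any control.

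The genes that rose lie mostly on the other arm of the loop. Usp2, a deubiquitinase with a strong daily rhythm, had 9.60, 9.47 and 9.68 on the TCPOBOP arrays, against 6.82, 7.27 and 6.33 on the controls (2.78 ± 0.24, adjusted p = 8.13e-05). Dbp, a rhythmic transcription factor, had 13.48, 13.49 and 13.49, against 11.71, 12.60 and 12.13 on the controls (adjusted p = 0.00392, and 0.183 with all 4 groups fitted). Ciart, a repressor of the clock, had 7.63, 7.86 and 7.93, against 6.66, 6.51 and 6.23 on the controls (adjusted p = 0.00119, and 0.126 with all 4 groups fitted). The TCPOBOP arrays lay close together for these 3 genes, and the controls spread more widely. Noct, a rhythmic phosphatase, rose by 2.11 ± 0.26 (adjusted p = 0.000655), and Per1 rose by 1.02 ± 0.20 (adjusted p = 0.00717, and 0.061 with all 4 groups fitted). Nr1d1, which represses Arntl, fell by 1.00 ± 0.16 (adjusted p = 0.0031, 0.309 with all 4 groups fitted and 0.128 under median scaling). The hour at which livers were taken is not given in the sources used here, so hour and treatment cannot be told apart for these genes.

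The promoters of Ciart and Arntl are shown as one gene from each arm with a clock motif. The E-box CACGTG was in 2 of 6 clock genes that rose and have a promoter entry (Ciart and Per1), in 0 of 3 that fell, and in 8.09% of all genes with a promoter entry. The ROR element core TAGGTCA was in 1 of 3 that fell (Arntl), in 0 of 6 that rose, and in 2.97% of all genes with a promoter entry. In Ciart (chr3:95882179-95882478, minus strand) 3 E-boxes stand in capitals, and in Arntl (chr7:113207261-113207560, plus strand) the element lies after the start site.
Ciart: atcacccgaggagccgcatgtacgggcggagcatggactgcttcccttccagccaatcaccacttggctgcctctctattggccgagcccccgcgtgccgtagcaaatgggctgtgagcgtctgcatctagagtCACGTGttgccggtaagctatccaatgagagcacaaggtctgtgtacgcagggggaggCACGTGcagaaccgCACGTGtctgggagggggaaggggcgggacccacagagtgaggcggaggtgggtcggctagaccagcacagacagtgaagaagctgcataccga
Arntl: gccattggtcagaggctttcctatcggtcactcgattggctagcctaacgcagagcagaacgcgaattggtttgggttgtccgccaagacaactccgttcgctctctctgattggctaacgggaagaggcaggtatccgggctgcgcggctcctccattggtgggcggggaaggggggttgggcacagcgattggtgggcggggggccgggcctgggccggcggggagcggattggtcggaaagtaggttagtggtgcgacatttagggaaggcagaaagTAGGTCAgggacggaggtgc

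Most measured genes of mitosis rose, but 20 of the 45 listed were not measured, Mki67 and Ccnb1 among them. Since 43 of the 45 have a probe on the array, most of these 20 failed the filter on detection. A mitosis gene undetected on all controls was counted only where all 3 TCPOBOP arrays detected it. The counts and median thus lean towards rises and hold for the measured genes only. Of 25 mitosis genes measured, 20 rose and 1 fell (10 and 0 with all 4 groups fitted, with 0 falling without TCPOBOP replicate 1 or 3 or control replicate 2 or 3), with a median change of 1.24, and of 1.41 and 1.23 within slides 2 and 4. That median was 0.64 without background correction and 0.61 with the authors' normalised values. Prc1, which organises the mid-zone of the spindle, had 9.21, 8.88 and 8.64 on the TCPOBOP arrays, against 6.43, 5.25 and 5.63 on the controls (3.14 ± 0.30, adjusted p = 0.000141). Cdc20, which switches on the ubiquitin ligase that starts anaphase, had 8.77, 8.76 and 8.51, against 6.15, 5.50 and 5.48 on the controls (2.97 ± 0.22, adjusted p = 3.05e-05). Every TCPOBOP array stood more than 2 log2 units above every control for both genes. Nusap1, a spindle protein, rose by 2.83 ± 0.28 (adjusted p = 0.000190), Top2a, topoisomerase IIα, by 2.24 ± 0.24 (adjusted p = 0.000321) and Birc5, survivin, by 2.29 ± 0.26 (adjusted p = 0.000429). Cdk1 rose by 2.55 ± 0.23 on its brighter probe, but its other kept probe, with the opposite sign, hardly moved.

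Of 33 DNA replication genes, 9 rose and 1 fell (4 and 0 with all 4 groups fitted, and 5 rose without TCPOBOP replicate 2), with a median change of 0.44. Rrm2, a subunit of ribonucleotide reductase, was detected on no control array and was at least 5.80-fold higher (adjusted p = 3.48e-05). Uhrf1, which keeps up DNA methylation at replication, had 7.81, 7.93 and 7.81 on the TCPOBOP arrays, against 5.52, 5.29 and 5.54 on the controls (2.40 ± 0.16, adjusted p = 1.97e-05). Mcm2, a subunit of the replicative helicase, rose by 1.56 ± 0.21 (adjusted p = 0.00104). Of 22 cell cycle brakes and p53 targets, 5 rose and 3 fell (4 and 1 with all 4 groups fitted, 5 and 1 under median scaling, and 1 fell without TCPOBOP replicate 2 or control replicate 2). Cdkn2b, an inhibitor of cyclin D kinases, had 8.07, 8.36 and 8.55, against 5.58, 6.49 and 5.83 on the controls (2.36 ± 0.25, adjusted p = 0.000301). Gadd45a, a stress-induced cycle inhibitor, rose by 2.57 ± 0.22 (adjusted p = 7.19e-05), and Bbc3, the death-promoting PUMA, fell by 1.26 ± 0.17 (adjusted p = 0.00129).

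The promoters of Cdc20 and Prc1 are shown because these mitosis genes had the largest rises among the listed ones that carry both motifs of the cell cycle promoters of G2 and M phase, the CHR element TTTGAA and the CCAAT box. TTTGAA was in 11 of 16 mitosis genes that rose and have a promoter entry and in 20.2% of all genes with an entry. CCAAT was in 10 of 16 and in 41.1%. The Cdc20 promoter lies at chr4:118437294-118437593 on the minus strand and that of Prc1 at chr7:80294201-80294500 on the plus strand, with both motifs in capitals.
Cdc20: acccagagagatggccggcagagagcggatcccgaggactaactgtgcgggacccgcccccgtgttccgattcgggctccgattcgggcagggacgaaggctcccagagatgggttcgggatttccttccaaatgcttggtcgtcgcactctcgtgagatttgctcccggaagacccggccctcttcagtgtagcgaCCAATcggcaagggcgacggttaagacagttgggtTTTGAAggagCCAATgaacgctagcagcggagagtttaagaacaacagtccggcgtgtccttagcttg
Prc1: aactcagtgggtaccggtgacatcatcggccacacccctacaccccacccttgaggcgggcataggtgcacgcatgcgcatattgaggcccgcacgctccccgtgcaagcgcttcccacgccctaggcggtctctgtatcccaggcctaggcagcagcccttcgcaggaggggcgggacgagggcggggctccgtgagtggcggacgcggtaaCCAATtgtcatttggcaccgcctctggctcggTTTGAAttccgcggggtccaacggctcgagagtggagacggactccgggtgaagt

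Most measured markers of macrophages were higher. Of 23 Kupffer cell and macrophage markers listed, 17 were measured. Among these 17, 14 rose and 1 fell (6 and 0 with all 4 groups fitted). The median change was 1.24, and 1.06 and 1.34 within slides 2 and 4. Cd5l, Fcer1g, Itgam and Ccr2 were detected on 0 of 6 arrays. The summed signal of the list on a linear scale was 15199, 11430 and 14978 on the TCPOBOP arrays, against 5637, 5134 and 6025 on the controls. Cd14, a co-receptor for bacterial lipopolysaccharide, had 9.14, 9.06 and 9.29, against 7.01, 6.98 and 6.85 on the controls (2.22 ± 0.16, adjusted p = 2.86e-05). Some genes that mark resident Kupffer cells were among those that rose, but Marco hardly moved (0.04 and -0.03 within slides 2 and 4). Vsig4, a complement receptor, rose by 1.60 ± 0.23 (adjusted p = 0.00168, and 0.363 with all 4 groups fitted) and Clec4f, a lectin of Kupffer cells, by 1.40 ± 0.18 (adjusted p = 0.000983, and 0.354 with all 4 groups fitted). C1qb and C1qc, subunits of the first complement component, rose by 1.53 ± 0.19 (adjusted p = 0.000747) and by 1.53 ± 0.22 (adjusted p = 0.00176). Cd163, the haemoglobin scavenger receptor, was the marker that fell (-1.26 ± 0.27, adjusted p = 0.0128, and 0.1 with all 4 groups fitted).

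Some neutrophil markers also rose, but only 5 of 13 listed were measured. Camp, Ngp, Elane, Cxcr2 and Mmp8 were detected on 0 of 6 arrays. Of the 5 measured, 3 rose and 0 fell (2 and 0 with all 4 groups fitted). The summed signal was 4020, 6269 and 7740 on the TCPOBOP arrays, against 554, 764 and 508 on the controls. Most of that sum was Lcn2, an iron-binding defence protein that hepatocytes also make, with 11.65, 12.31 and 12.56 against 8.57, 7.70 and 7.52 on the controls (4.24 ± 0.32, adjusted p = 3.66e-05). S100a8, a calcium-binding protein of myeloid cells, rose by 2.74 ± 0.46 (adjusted p = 0.00345). The third, Mpo, did not pass with all 4 groups fitted (highest adjusted p over all settings 0.459). S100a9 and Csf3r did not pass. Their changes within slides 2 and 4 were 0.26 and -0.12 for S100a9, and -0.98 and 0.67 for Csf3r. Of 19 T and NK cell markers listed 8 were measured, and of 15 B and plasma cell markers 4. In limma's test 0 of the 8 and 0 of the 4 passed (2 and 0 had an unadjusted p under 0.05). Cd8a, Gzmb, Ncr1, Ms4a1, Pax5 and Jchain were detected on 0 of 6 arrays and Cd4 on 1, so they were not tested. The summed T and NK cell signal was 2683, 3461 and 3020 on the TCPOBOP arrays, against 2839, 2833 and 2388 on the controls.

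Of hepatocyte and stellate markers 10% and 13.3% passed, and of endothelial markers 19%, against 17.8% of all genes. Bile duct markers gave calls for keratins. The hepatocyte sum was 225972 to 250877 on the TCPOBOP arrays and 227799 to 274230 on the controls, which overlap, with 0 of 10 higher and 1 lower (Alb, which lost the call without TCPOBOP replicate 1 or 2, or control replicate 2 or 3, adjusted p up to 0.0912, 0.267 with all 4 groups fitted and 0.385 under median scaling). Of 21 sinusoidal endothelial markers 2 rose and 2 fell (0 and 1 with all 4 groups fitted, and 2 and 0 under median scaling), and of 15 stellate cell and fibroblast markers 1 rose and 1 fell. Leaving out any of several arrays lowered the number of endothelial markers that fell to 0 or 1 (TCPOBOP replicates 1 to 3, control replicate 3), and the stellate marker that fell, Acta2 (adjusted p = 0.0255, and 0.0963 with all 4 groups fitted), was lost without TCPOBOP replicate 1 or 3 or control replicate 1 or 2. Vim, the intermediate filament of mesenchymal cells, had 9.52, 8.89 and 9.50 on the TCPOBOP arrays, against 7.30, 5.99 and 6.88 on the controls (2.58 ± 0.33, adjusted p = 0.000844, and 0.11 with all 4 groups fitted and slide as a block). Of 10 bile duct and progenitor markers 3 rose and 1 fell (0 without TCPOBOP replicate 1 or 3). The duct marker that fell was Sox9 (-1.26). Sox9 did not pass with all 4 groups fitted, with or without slide as a block (highest adjusted p over all settings 0.635). Those that rose were Prom1, a stem and duct cell membrane protein (2.40 ± 0.22, adjusted p = 0.000124), and the keratins Krt8 (1.26 ± 0.17) and Krt18 (1.04 ± 0.16, adjusted p of 0.0581 with all 4 groups fitted and slide as a block), which hepatocytes also make. The defining duct markers Krt19 and Epcam were detected on 0 of 6 arrays.

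**Figure D5:**
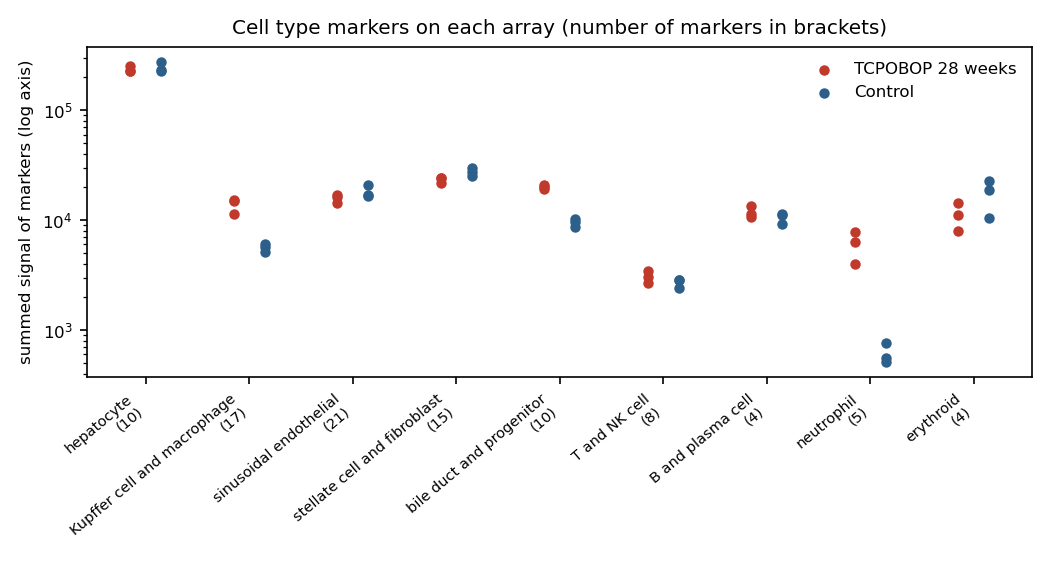
Summed linear signal (log axis) of the measured markers of each cell type on each array, with the number of markers in brackets. The TCPOBOP arrays lie above all controls for macrophage, neutrophil and bile duct lists, below all controls for the stellate list, and overlap the controls for hepatocytes, T and NK cells, B and plasma cells, endothelium and erythroid cells.

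Chemokines, antigen presentation and the interferon response changed beside these markers, and the part of cell numbers in these results was not tested. Of 27 chemokines and cytokines, 12 rose and 4 fell (3 and 1 with all 4 groups fitted, 6 and 1 under median scaling, and 5 and 2 without TCPOBOP replicate 3, with 2 falling also without replicate 1). Ccl4, a macrophage chemokine, had 9.88, 10.03 and 9.79 on the TCPOBOP arrays, against 5.38, 5.99 and 5.98 on the controls (4.12 ± 0.21, adjusted p = 3.29e-06). Cxcl10, induced by interferons, had 8.05, 8.09 and 7.77, against 5.31, 4.89 and 5.05 on the controls (2.88 ± 0.18, adjusted p = 1.46e-05). Of 20 antigen presentation genes, 8 rose and 0 fell (4 and 0 with all 4 groups fitted). Cd74, the invariant chain of MHC class II, had 11.53, 11.36 and 11.64, against 9.25, 9.68 and 10.05 on the controls (1.85 ± 0.22, adjusted p = 0.000583). Of 32 interferon response genes, 10 rose and 2 fell (4 and 0 with all 4 groups fitted), but 6 rose without TCPOBOP replicate 3 or control replicate 3. Without any 1 array, TCPOBOP or control, 0 or 1 fell.

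Among matrix metalloproteinases Mmp13 and Mmp12 rose, and others did not move with them. Mmp13 and Mmp12, an interstitial collagenase and a macrophage elastase, were detected on no control array. Mmp12 was at least 8.93-fold higher (adjusted p = 2.49e-05), and Mmp13 was at least 13.6-fold higher (adjusted p = 2.33e-06). Mmp13 had 9.06, 8.88 and 8.91 on the TCPOBOP arrays, against 4.95, 4.70 and 4.97 on the controls. Mmp2, Mmp14 and Mmp9, which also cut matrix proteins, had changes of -0.64, -0.79 and -0.65, with adjusted p of 0.0442, 0.0495 and 0.0809 (0.681, 0.359 and 0.289 with all 4 groups fitted). Of 25 collagen and matrix genes, 4 rose and 5 fell (2 and 0 with all 4 groups fitted). The number that fell was 1 without TCPOBOP replicate 1 or 3, and 2 or 3 without TCPOBOP replicate 2 or control replicate 2 or 3. It was 3 with the authors' normalised values and without background correction, 2 under cyclic loess and 0 under median scaling, with 4 higher in each.

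Acute phase proteins split. Of 26 measured, 6 rose and 5 fell (4 and 3 with all 4 groups fitted), with a median change of 0.06. Saa3, a serum amyloid, had 9.42, 10.50 and 9.88 on the TCPOBOP arrays, against 5.90, 6.80 and 6.79 on the controls (3.43 ± 0.33, adjusted p = 0.000141). Orm2, orosomucoid, had 13.94, 14.02 and 14.29, against 11.64, 12.08 and 11.59 on the controls (2.31 ± 0.20, adjusted p = 7.64e-05). The interleukin 6 receptor Il6ra fell by 1.87 ± 0.18 (adjusted p = 0.000185, and 0.0879 with all 4 groups fitted and slide as a block), and Itih3, a plasma protease inhibitor, by 1.42 ± 0.20 (adjusted p = 0.00149). Of 34 complement and coagulation genes, 2 rose and 7 fell (0 and 0 with all 4 groups fitted). The 7 became 4 without TCPOBOP replicate 2 or 3, and 1 under median scaling, with 2 then higher. C9, a pore-forming complement protein, had 11.38, 10.72 and 11.03, against 13.34, 12.85 and 13.36 on the controls (adjusted p = 0.000277, and 0.421 with all 4 groups fitted).

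Some enzymes that handle amino acids and methyl groups fell. Of 36 urea cycle and amino acid genes, 1 rose (0 without TCPOBOP replicate 1 or 3) and 10 fell (0 and 2 with all 4 groups fitted, 1 and 3 under median scaling, and 6 fell without TCPOBOP replicate 2), with a median change of -0.43. Prodh2, which breaks down hydroxyproline, had 11.61, 11.67 and 11.51 on the TCPOBOP arrays, against 13.11, 13.12 and 12.87 on the controls (-1.43 ± 0.16, adjusted p = 0.000423). Of 20 methionine and betaine cycle genes, 0 rose and 7 fell (0 and 2 with all 4 groups fitted, and 0 and 3 under median scaling). Nnmt, which spends methyl groups on nicotinamide, had 6.97, 6.77 and 7.07, against 10.04, 10.41 and 10.16 on the controls (-3.26 ± 0.18, adjusted p = 5.25e-06, and 0.055 with all 4 groups fitted). Both groups were tight for Nnmt and lay far apart. Bhmt, which remethylates homocysteine from betaine, had 10.57, 10.17 and 10.78, against 12.23, 13.29 and 13.20 on the controls (adjusted p = 0.000707, and 0.253 with all 4 groups fitted). Cbs, which commits homocysteine to cysteine, fell by 1.40 ± 0.20 (adjusted p = 0.00163).

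Part of the genes of glucose production and fatty acid oxidation fell. Of 21 gluconeogenesis and glycogen genes, 1 rose and 5 fell (1 and 1 with all 4 groups fitted, 1 and 2 under median scaling, and 3 fell without TCPOBOP replicate 3). The member that rose did not pass without TCPOBOP replicate 1 or control replicate 1 or 3. Ppp1r3c, which targets a phosphatase to glycogen, had 9.41, 9.44 and 8.90 on the TCPOBOP arrays, against 12.76, 12.20 and 11.76 on the controls (-2.99 ± 0.27, adjusted p = 0.000112). Of 31 fatty acid oxidation and ketone body genes, 2 rose and 7 fell (0 and 1 with all 4 groups fitted, 1 and 4 under median scaling, and 1 and 4 without TCPOBOP replicate 3). Fgf21, a hormone that the liver releases on fasting, had 5.36, 5.70 and 6.12, against 9.39, 8.83 and 7.53 on the controls (-2.85 ± 0.42, adjusted p = 0.00185, and 0.0555 with all 4 groups fitted). Ppara, the receptor that controls these genes, fell by 1.03 ± 0.18 (adjusted p = 0.00467, and 0.129 under median scaling), and Pdk4, which holds back glucose oxidation, by 1.82 ± 0.22 (adjusted p = 0.000523, and 0.125 with all 4 groups fitted). The feeding state of the mice is not given in the sources used here.

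Of 15 glycolysis genes, 5 rose and 1 fell (3 and 0 with all 4 groups fitted, and 2 and 0 under median scaling), with Hkdc1 in the lead. The number that rose was 3 without any TCPOBOP replicate or without control replicate 2, and the fall was lost without TCPOBOP replicate 3 or control replicate 2 or 3. Lipid droplet and uptake genes split, with 5 higher and 5 lower of 23 (4 and 2 with all 4 groups fitted). Pparg, a nuclear receptor of fat storage that is scarce in normal hepatocytes, had 7.76, 7.80 and 7.86 on the TCPOBOP arrays, against 4.75, 5.19 and 4.58 on the controls (2.97 ± 0.19, adjusted p = 1.66e-05). Only 1 control array detected it. Cidec, a droplet protein that PPARγ induces, rose by 2.15 ± 0.29 (adjusted p = 0.00112), and Lpl, lipoprotein lipase, by 1.66 ± 0.19 (adjusted p = 0.000476). Fabp5, a fatty acid carrier, fell by 2.87 ± 0.28 (adjusted p = 0.000167), and Plin5, a droplet protein of oxidising cells, by 1.59 ± 0.23 (adjusted p = 0.00156).

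In core biosynthetic and respiratory programmes 2.78% to 12.5% of members passed, against 17.8% of all genes, but the lipid synthesis lists gave more calls in some other settings. Of 36 mitochondrial oxidative phosphorylation genes 1 rose (Ndufa8, 0.84 ± 0.17, which lost the call under median scaling) and 0 fell. Of 24 unfolded protein response genes 1 rose and 1 fell. They were Trib3, a stress-induced pseudokinase (2.61 ± 0.22, adjusted p = 8.13e-05), and Chac1, which degrades glutathione (-2.46 ± 0.21, adjusted p = 7.00e-05, and 0.124 with all 4 groups fitted). Both are targets of the same stress branch, and they moved in opposite directions. Of 19 cholesterol synthesis genes 1 rose and 1 fell (0 and 0 with all 4 groups fitted), the number that fell being 0 without TCPOBOP replicate 1 or 2 or control replicate 2 or 3 and 2 without control replicate 1. Of 24 fatty acid synthesis genes 1 rose (0 without TCPOBOP replicate 2 or 3 and 2 without control replicate 1 or 3) and 2 fell (0 or 1 without any TCPOBOP replicate or without control replicate 1 or 3). With the authors' normalised values, and likewise without background correction, 1 rose and 7 fell in fatty acid synthesis and 1 rose and 3 fell in cholesterol synthesis.

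Sex-biased genes were changed in these females in both classes. Of 22 female-biased genes, 5 rose and 9 fell (2 and 4 with all 4 groups fitted, 3 and 6 under median scaling, and 3 rose without any TCPOBOP replicate or without control replicate 1 or 3). Of 21 male-biased genes, 4 rose and 7 fell (1 and 6 with all 4 groups fitted). Sult1e1, the oestrogen sulfotransferase, was detected on no control array and was at least 15.4-fold higher (adjusted p = 3.29e-06). Sult1e1 had values of 9.54, 8.98 and 8.87 on the TCPOBOP arrays, against 4.70, 4.97 and 4.69 on the controls. Cyp4a12a, a male-biased fatty acid hydroxylase, was detected on no control array and was at least 4.61-fold higher (adjusted p = 0.000169, and 0.0584 with all 4 groups fitted). Cyp2d9, another male-biased P450, rose by 2.31 ± 0.19 (adjusted p = 7.02e-05, and 0.15 with all 4 groups fitted). Serpina1e, a male-biased serine protease inhibitor, had 11.27, 10.73 and 10.65, against 14.33, 13.81 and 13.19 on the controls (-2.89 ± 0.30, adjusted p = 0.000234).

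Growth hormone sets much of this sex bias through STAT5, and some genes of its pathway fell. Of 19 growth hormone and IGF genes, 0 rose and 6 fell (0 and 2 with all 4 groups fitted, and 1 and 3 under median scaling). The largest rise on the list was 1.21 and did not pass. Cish was higher within slides 2 and 4, by 1.81 and 0.86. With the authors' normalised values and under cyclic loess 1 gene rose too. Egfr, the epidermal growth factor receptor that growth hormone maintains in liver, had 8.41, 8.50 and 8.86 on the TCPOBOP arrays, against 11.67, 10.82 and 10.97 on the controls (-2.56 ± 0.25, adjusted p = 0.000158), with one sign on all 4 kept probes. Socs2, a feedback inhibitor of the hormone's receptor, had 11.12, 10.27 and 10.93, against 11.90, 13.31 and 12.77 on the controls (-1.88 ± 0.36, adjusted p = 0.00677, and 0.0526 with all 4 groups fitted and slide as a block). Igfals, which stabilises IGF1 in blood, fell by 0.86 ± 0.16 (adjusted p = 0.00572, 0.221 with all 4 groups fitted and 0.158 under median scaling).

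Nuclear receptors and membrane transporters were more often lower than higher. Of 28 nuclear receptors and coregulators, 3 rose and 7 fell (2 and 3 with all 4 groups fitted, and 2 and 2 under median scaling). Esrrg, an oestrogen-related receptor, was seen on all 3 controls but on no TCPOBOP array, and so was lower by at least 4.51-fold (adjusted p = 2.86e-05). Rarb, a retinoic acid receptor, rose by 1.79 ± 0.28 (adjusted p = 0.00247). Of 30 transport and membrane genes, 0 rose and 11 fell (0 and 3 with all 4 groups fitted, and 0 and 6 under median scaling). Besides Slc1a2, they included Slc30a10, a manganese exporter (-2.56 ± 0.22, adjusted p = 8.54e-05), and Slc22a7, an organic anion transporter (-1.55 ± 0.29, adjusted p = 0.00606). Among 26 bile acid genes, 5 rose and 4 fell (4 and 1 with all 4 groups fitted, and 3 and 2 under median scaling). The export pumps Abcc4 (3.17 ± 0.23, adjusted p = 2.86e-05) and Abcc2 (1.49 ± 0.16, adjusted p = 0.000263) rose. Cyp7a1, the rate-limiting enzyme of bile acid synthesis, fell by 1.12 ± 0.19 (adjusted p = 0.00395, and 0.205 with all 4 groups fitted).

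The share of members that passed was 33.3% for NRF2 targets, 27.8% for immediate early genes, 36% for iron and haemoglobin genes and 33.3% for hepatocyte transcription factors, against 17.8% of all genes. Of 18 targets of NRF2, a transcription factor of the oxidative stress response, 6 rose and 0 fell (4 and 0 with all 4 groups fitted, and 3 rose without control replicate 3). Srxn1, which repairs oxidised peroxiredoxins, had 11.28, 11.67 and 11.67 on the TCPOBOP arrays, against 9.82, 9.64 and 9.72 on the controls (1.82 ± 0.18, adjusted p = 0.000165). Of 18 immediate early genes, 5 rose and 0 fell (2 and 0 with all 4 groups fitted), with Jun, a subunit of AP-1, in the lead (2.08 ± 0.28, adjusted p = 0.00119). Of 25 iron and haemoglobin genes, 3 rose and 6 fell (3 and 2 with all 4 groups fitted, and 2 and 1 under median scaling). Tfrc, the transferrin receptor, rose by 1.33 ± 0.22 (adjusted p = 0.00308), and Alas1, the first enzyme of haem synthesis and a CAR target, by 1.31 ± 0.17 (adjusted p = 0.000816). Of 21 hepatocyte transcription factors, 1 rose and 6 fell (0 and 2 with all 4 groups fitted, and 1 and 1 under median scaling), and 2 or 3 fell without TCPOBOP replicate 1 or 2 or control replicate 2 or 3.

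Genes known from fetal liver and liver tumours were read last. Of 26 listed, 24 have a probe on the array, but 10 were not measured, H19, Dlk1 and Epcam among them. Of 16 measured, 7 rose and 0 fell (5 and 0 with all 4 groups fitted), with a median change of 1.16, and of 0.82 and 1.51 within slides 2 and 4, but 0.57 without background correction and 0.56 with the authors' normalised values. Lcn2 and Hkdc1 are on this list too. Aldh3a1, an enzyme that oxidises aldehydes and is little used by normal hepatocytes, had 7.66, 8.99 and 8.01 on the TCPOBOP arrays, against 5.40, 4.50 and 4.52 on the controls (3.42 ± 0.36, adjusted p = 0.000286). Golm1, a Golgi membrane protein, had 8.98, 9.55 and 8.82, against 6.88, 6.47 and 6.29 on the controls (2.57 ± 0.24, adjusted p = 0.000137). The classical oncofetal glypican was not among those that rose. Gpc3 had 5.16, 4.98 and 5.22 on the TCPOBOP arrays, against 5.96, 5.59 and 5.54 on the controls, with detection on 1 of 3 TCPOBOP arrays and 3 of 3 controls (-0.58 ± 0.18, adjusted p = 0.0582). Afp did not pass the filter on detection and was not tested. In the Hippo list, Ptpn14, a phosphatase that binds YAP, was detected on no control array and was at least 17.3-fold higher (adjusted p = 2.72e-06), while of 17 members 3 rose and 3 fell (3 and 0 under median scaling), with 0 or 1 falling when any 1 array of either group was left out.

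Levels of a few of these genes in the other regimens, normalised with all 22 arrays, are set side by side as a description, with no test, and all regimens share the same controls. For Avpr1a the 28-week TCPOBOP livers had a median of 5.14 (range 4.45 to 5.58), the 42-week livers 6.65 (5.08 to 8.52), those with DENA plus TCPOBOP 9.05 (4.75 to 10.58) and the controls 11.28 (11.12 to 11.81). Axin2 had medians of 5.64 (5.49 to 5.72), 7.30 (7.12 to 8.89), 8.46 (5.58 to 10.07) and 7.39 (6.71 to 7.75) in the same groups. Dbp had medians of 13.31 (13.30 to 13.31), 11.61 (10.08 to 12.79), 12.02 (10.11 to 12.71) and 11.91 (11.51 to 12.40). Chil1 had medians of 12.35 (11.28 to 12.39), 11.82 (9.98 to 13.21), 11.15 (8.56 to 13.52) and 4.79 (4.62 to 5.01).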

How the data were processed

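Biotin-labelled RNA of 22 liver samples was measured on Illumina mouse bead arrays, and the arrays were read with BeadStudio 3.0.19.0, per the submitters' processing notes. The authors deposited a table of non-normalised bead intensity with a detection p-value for each of 45281 probes and array, and a table of normalised intensity that served as an alternative. Groups were taken from the sample titles. The 6 arrays of the TCPOBOP 28 weeks and control groups were corrected for background (normexp fitted through the detection p-values, offset 16), quantile-normalised and taken to log2. Probes with a detection p-value under 0.05 on at least 3 of the 6 arrays were kept (18091), of which 15481 named a single gene, and each of 10088 genes was read on its brightest kept probe. In all, 34885 probes have 1 gene symbol, 18 several and 10378 none, per the platform annotation.

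Groups were compared with limma 3.58.1 in R 4.3.3 (lmFit and eBayes, two-sided, Benjamini-Hochberg adjustment over all 10088 genes, threshold 0.05). The procedure was tested on simulated data. A gene undetected on all arrays of a group is given as "at least N-fold", the mean of the other group against the lowest signal among detected probes or the probe's own, whichever was higher. The 12 largest rises and falls are those of genes that passed also with all 4 groups fitted, whose arrays did not overlap, whose probes shared a sign and which were named and not on the CAR list. Of each list described, up to 4 members with the largest change, and the genes Cyp2b10, Cyp2c55, Gstm3, Nr1i3, Alb, Glul, Cyp2e1, Afp and Gpc3, could be named, and other names were chosen after their values were seen. The members, lists and rules were chosen with earlier results of these data known. Alternatives covered background correction, normalisation, the detection filter, the choice of probe, the fit of all 4 groups, slide as a block and leaving out each array. The number of arrays, 3 in each group, limits the precision. Figures were drawn with matplotlib 3.10.9 in Python 3.11.15.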

Additional observations from a re-analysis of the deposited data

How the results depend on the processing

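With these 6 arrays 1791 genes passed, 980 higher and 811 lower. Median scaling gave 955 (708 higher, 247 lower), the fit of all 4 groups 771 (497 and 274), and that fit with slide as a block 729 (457 and 272). Leaving out 1 array at a time gave 1214 to 1712 genes, 707 to 928 of them higher and 507 to 784 lower, with 530 lower without TCPOBOP replicate 1 and 507 without TCPOBOP replicate 3. Over all lists, the 337 members that passed (185 higher, 152 lower) became 218 under median scaling (68 lower), 144 in the fit of all 4 groups (97 and 47), 140 with slide as a block (92 and 48), and 255 to 320 without 1 array (144 to 174 higher and 107 to 146 lower). Of the genes eligible to be named, 167 passed, against 109 in the fit of all 4 groups, 104 with slide as a block and 151 to 160 without 1 array. Fewer residual degrees of freedom come with leaving out an array, and a wider spread with the arrays of the other groups. The cause of the change under median scaling was not tested. The authors' normalised values (2035), no background correction (2055), cyclic loess (1799), no detection filter (1597 of 19057), a stricter one (1933 of 8458), array weights (2137), averaging over probes (1805), a random effect of slide (2254) and a trended, robust fit (2022) stayed within 1.5 times the count. The sizes moved more than the counts: the medians of the mitosis, oncofetal and pericentral lists and the changes of Chil1, Mmp13, Sult1e1 and Ptpn14 were smaller with the authors' normalised values and without background correction. Signal near background limits genes undetected in a group, for which bounds are given.

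The replicate numbers do not pair the samples. Deviations of same-numbered arrays from their group means correlated at 0.0109, -0.0361 and 0.138. With the replicate number as a block 1641 genes passed (926 higher, 715 lower), with 326 list members (180 and 146) and 162 of the genes eligible to be named.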
